A study of Mus musculus with 6 samples.

Results

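Chaperones are proteins that help others to fold, and the unfolded protein response (UPR) is the programme by which a cell adjusts the folding capacity of its endoplasmic reticulum (ER). Expression of 46 genes of these systems was examined among 15106 genes counted in T cells from mouse skin. The 46 were taken by symbol from a fixed list and all of them were in the count table. They fall into 9 groups by role: cytosolic HSP70 and HSP110, cytosolic HSP90, J proteins with BAG3, HSPB1 and HSF1, mitochondrial chaperones, the CCT chaperonin, ER chaperones and their co-factors, ER lectins and disulfide isomerases, ER-associated degradation, and UPR sensors and transcription factors. A filter on low counts kept 45 of them for testing, and Hspb1 was left out.

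The study measured mRNA by sequencing in regulatory T cells (Tregs, 4 libraries) and effector T cells (Teffs, 2 libraries). Both were sorted from skin of FOXP3-GFP mice, a strain that reports the Treg transcription factor FOXP3 by fluorescence, at 6 weeks of age, so the reporter is shared by both groups and no treatment is named. Whether the libraries came from separate animals is not stated in the labels, and p-values therefore measure the spread between these libraries, which may be technical. The design sets one population against the other. Low-input SMARTer chemistry made the cDNA.

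In the cytosol, HSP70 and HSP90 proteins work with J proteins and nucleotide exchange factors, and the chaperonin CCT folds actin, tubulin and other proteins inside a closed ring. The transcription factor HSF1 raises the heat-inducible members (Hspa1a, Hspa1b, Hsph1, Hsp90aa1, Bag3, Dnajb1) when misfolded protein accumulates, through heat shock elements in their promoters. In the ER, the sensors IRE1 (Ern1), PERK (Eif2ak3) and ATF6 act through the transcription factors XBP1, ATF4, CHOP (Ddit3) and cleaved ATF6, which raise chaperones, oxidoreductases and degradation factors, in part through ER stress response elements. In T cells this machinery is known for its part in cytokine secretion and in the growth that follows activation.

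Counts in genes came to between 4902126 and 7468778 per library, and levels are given as CPM, the usual depth-normalised count, on scaled library sizes. A floor of 3 counts stood at 0.397 to 0.581 CPM and covers counting error only, since copies made by PCR are not independent molecules. Foxp3 was at 103 to 233 CPM in Tregs and at 11.3 and 7.17 CPM in Teffs, and the T cell genes Cd3e and Cd4 had counts in every library. All 6 dermal fibroblast markers had counts in Treg 3 and in Teff 1, with summed levels of 1994 and 176 CPM, against 3.85 to 8.30 CPM in the other libraries. Keratinocyte markers (5 of 6 listed) summed to 544 CPM in Treg 3, 98.9 in Teff 1, 20.4 in Teff 2 and at most 0.160 elsewhere. Markers listed for B and plasma cells, which carry a large secretory load, were uneven. Cd79a, Ms4a1, Mzb1 and Pou2af1 had no counts in 2 to 5 of the 6 libraries and reached at most 9.002 CPM (Ms4a1 in Teff 1). Cd79b was at 28.3 CPM in Treg 1 and 41.0 in Treg 4 and at 12.2 CPM or less elsewhere, and Sdc1 at 41.9 CPM in Treg 2 and 101 in Treg 3 and at 15.6 CPM or less elsewhere. Prdm1, which activated T cells and Tregs also express, was at 123 to 515 CPM in Tregs, highest in Treg 1, and at 102 and 62.4 CPM in Teffs. The part of these cells in the chaperone levels was not tested. Myeloid markers (5 of 7 in the table) summed to 606 CPM in Treg 4 and to 123 to 292 CPM in the other libraries. In bulk samples such as these, fewer cells of a type and less RNA per cell cannot be told apart.

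Promoters of the members were read from RefSeq (GRCm38.p6), in windows of 250 bases before to 50 bases after the start site, and 37 of the 46 members had one. Gene positions given below are from another annotation, GENCODE, whose start sites can differ. The stretches shown for Hspa5 and Hsp90b1 overlap those gene positions. Those not matched were Hspa8, Hspa9, Hsp90aa1, Hsp90ab1, Hsf1, Cct4, Hyou1, Manf and Atf6. The ER stress response element was searched on both strands as CCAAT, then 9 bases of any kind, then CCACG. It was in 7 of the 37 members (18.9%) and in 0.137% of all 27025 genes with a window, of which these 7 are part: 37 genes in all. The members were Hspa5, Hsp90b1, Dnajc3, Creld2, Calr, Canx and Pdia6, so the element joins genes of different roles, from the HSP70 of the ER to its lectins. The list holds UPR genes, known to be raised in part through this element, so the contrast with all genes was partly built in. Each match is shown in the orientation of the motif, with its fixed bases in capitals and the strand of the match relative to the gene, because these matches are what the 7 genes share beyond their function:
Hspa5, chr2:34772025-34772043, same strand: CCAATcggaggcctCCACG
Hsp90b1, chr10:86705638-86705656, same strand: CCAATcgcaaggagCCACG
Hsp90b1, chr10:86705533-86705551, other strand: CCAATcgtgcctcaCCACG
Dnajc3, chr14:118937827-118937845, same strand: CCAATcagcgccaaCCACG
Creld2, chr15:88819520-88819538, other strand: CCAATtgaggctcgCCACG
Calr, chr8:84847075-84847093, other strand: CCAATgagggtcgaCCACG
Canx, chr11:50325800-50325818, same strand: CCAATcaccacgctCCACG
Pdia6, chr12:17266491-17266509, same strand: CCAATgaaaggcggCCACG
The heat shock element was searched as GAANNTTC, which reads alike on both strands, and was in 9 of 37 members (24.3%) against 9.04% of all genes. These were Hspa1a, Hspa1b, Hsph1, Dnaja1, Bag3, Hspb1, Hspd1, Hspe1 and Cct2. A longer form that contains the first, GAANNTTC with 2 more bases of any kind and then GAA, was in Hsph1, Hspd1 and Hspe1 (8.11% against 0.662%). Hspd1 and Hspe1, which encode the mitochondrial chaperonin and its lid, lie head to head, and their windows hold the same match at chr1:55088064-55088071. The core XBP1 site TGACGTGG was in 0 members and 0.714% of all genes, and the C/EBP-ATF site TGATGCAA was in Herpud1 alone among members (2.70% against 1.03%). The list also holds genes known to be raised through heat shock elements, so those shares were partly built in too. A match describes the letters of these windows and is not evidence of binding.

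The 250 bases before the start site of Hspa1a and Hspa1b are shown because these neighbouring genes on chromosome 17 are near copies. Their upstream stretches were identical at 247 of 250 bases (98.8%), and capitals mark the heat shock element:
Hspa1a, chr17:34972157-34972406, minus strand: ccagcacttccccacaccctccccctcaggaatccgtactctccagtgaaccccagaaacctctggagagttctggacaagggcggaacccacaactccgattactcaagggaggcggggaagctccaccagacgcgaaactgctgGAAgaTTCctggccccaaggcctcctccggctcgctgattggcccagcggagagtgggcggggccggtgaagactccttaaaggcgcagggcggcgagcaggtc
Hspa1b, chr17:34959239-34959488, minus strand: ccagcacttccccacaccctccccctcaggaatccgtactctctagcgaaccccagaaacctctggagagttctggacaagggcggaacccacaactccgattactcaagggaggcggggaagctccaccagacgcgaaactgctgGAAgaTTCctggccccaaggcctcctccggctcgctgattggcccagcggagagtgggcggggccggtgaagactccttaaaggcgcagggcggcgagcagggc
The upstream stretches of Hspa5 and Hsp90b1, the most abundant ER chaperone genes, are shown for contrast, with capitals on the fixed bases of ER stress response elements:
Hspa5, chr2:34771840-34772089, plus strand: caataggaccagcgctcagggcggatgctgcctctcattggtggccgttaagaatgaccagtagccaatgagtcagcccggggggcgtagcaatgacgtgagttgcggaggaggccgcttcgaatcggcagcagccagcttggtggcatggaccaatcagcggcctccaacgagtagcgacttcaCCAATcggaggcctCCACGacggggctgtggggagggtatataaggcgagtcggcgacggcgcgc
Hsp90b1, chr10:86705445-86705694, minus strand: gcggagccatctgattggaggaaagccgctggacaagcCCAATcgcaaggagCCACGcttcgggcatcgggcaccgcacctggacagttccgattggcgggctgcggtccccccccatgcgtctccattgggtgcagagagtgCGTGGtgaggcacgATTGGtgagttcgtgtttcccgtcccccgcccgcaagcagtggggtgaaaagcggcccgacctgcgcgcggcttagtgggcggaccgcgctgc

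Across the whole set, no gene separated Tregs from Teffs by the test. None of the 45 tested members passed edgeR's quasi-likelihood test at an adjusted p under 0.05, where 0.0425% of all 11775 genes tested passed (5 genes: 0.034% higher in Tregs and 0.00849% lower). The adjusted p was 1 for each member tested. No member had an unadjusted p under 0.05 (4.73% of all genes did), and the smallest was 0.105 for Hspa9. DESeq2 called 0 of the 43 members it gave an adjusted p, against 1.86% of all genes, and 0 of 44 had an unadjusted p under 0.05, against 6.62%. Limma-voom called 0 of 45, against 0.0255% of all genes, and only Dnajb9 had an unadjusted p under 0.05 (0.0479), against 7.94% of all genes. The authors' deposited table gives 0 members at an FDR under 0.05, against 0.285% of its genes (43), and a smallest member p of 0.160, and its fold changes have the sign found here for 43 of 45 members. Log2 fold changes, coded Treg minus Teff, were positive for 19 members and negative for 26, while 53.4% of all genes were positive. Their median was -0.10, beside 0.07 over all genes. They passed 1 in size for 6 members (13.3%), against 31.9% of all genes.

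**Figure D1:**
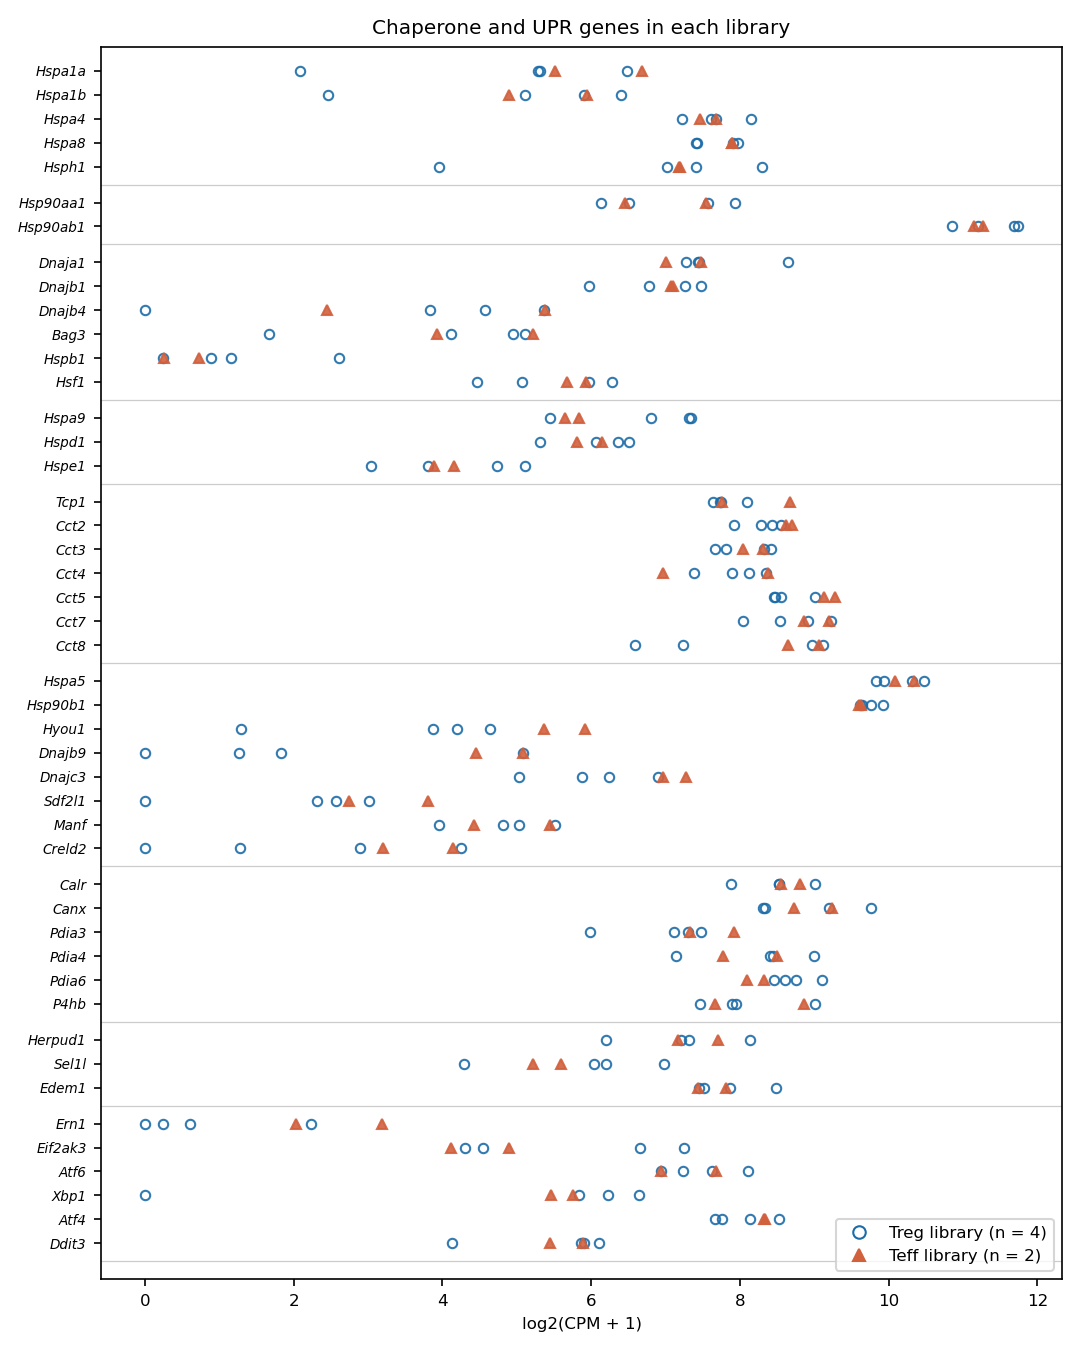
Level of each of the 46 genes in each library, as log2(CPM + 1), grouped by role and separated by grey lines. Open circles are the 4 Treg libraries and filled triangles the 2 Teff libraries; the groups overlap for all but 5 of the 45 tested genes, and Hsp90ab1, Hspa5 and Hsp90b1 lie furthest to the right.

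The precision of these differences varied with the level of the gene. A 95% interval was computed for each log2 fold change, and for Hspa5, Hsp90b1 and Cct3 it lay wholly between -1 and 1, so that for these 3 members (6.67%, against 1.46% of all genes) a 2-fold difference in either direction was outside the interval. For Ern1 the interval ran from -7.30 to 2.67, and for Creld2 from -5.82 to 3.94. A p above the threshold therefore says little for the scarce members. Of 45 members, 6 (13.3%) lacked counts in some library, as did 33.4% of all genes. The median coefficient of variation between Treg libraries was 46.8% for members and 76.4% for all genes. Members had a median level of 156 CPM and all genes one of 33.1 CPM.

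**Figure D2:**
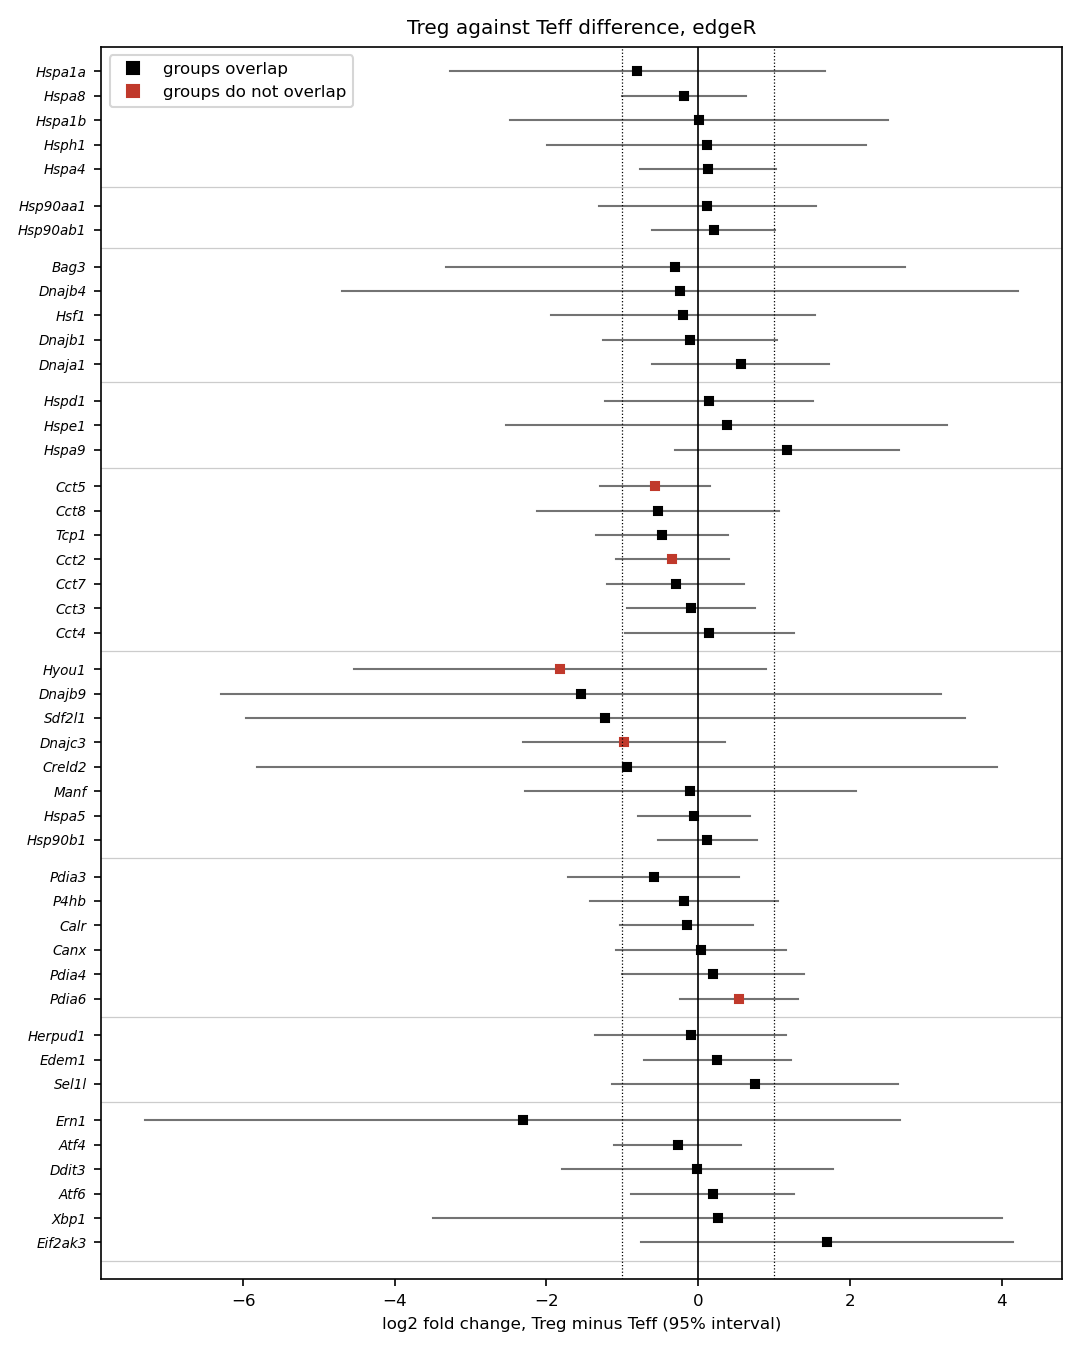
Log2 fold change, Treg minus Teff, of the 45 tested genes (squares) with its 95% interval (lines), by role group. Dotted lines mark -1 and 1; every interval spans 0, and the 5 red squares are genes whose Treg and Teff libraries do not overlap.

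Groups did not overlap for 5 members (11.1%), against 15.0% of all genes. All Treg libraries lay below both Teff libraries for Cct2, Cct5, Hyou1 and Dnajc3, and above them for Pdia6, while 9.49% of all genes lay below and 5.51% above. This share is near the background. Leaving out the libraries with fibroblast transcripts, Treg 3 and Teff 1, leaves 3 Tregs against 1 Teff, where more genes of any kind do not overlap. Then 10 of 46 members lay below (21.7%, against 23.8% of all genes) and 4 above (8.70%, against 13.9%), with 0 called.

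Among cytosolic HSP70 and HSP110 genes, the inducible ones spanned a wide range within Tregs and the others a narrow one. Hspa8, the constitutive HSP70 (chr9:40800984-40810087), stood at 170 CPM in Treg 1, 240 in Treg 2, 171 in Treg 3 and 250 in Treg 4, beside 238 CPM in Teff 1 and 236 in Teff 2; libraries keep this order hereafter. Its log2 fold change came to -0.19 with an SE of 0.35 (± gives the SE of log2 fold changes throughout), and both Teff libraries lay within the range of the Tregs. Hspa1a, a heat-inducible HSP70 (chr17:34969190-34972156), was at 3.25, 37.9, 38.6 and 88.3 CPM in Tregs and at 44.5 and 102 CPM in Teffs. Treg 1 was the low library there, with 18 counts. Its neighbour Hspa1b (chr17:34956436-34959238) was at 4.51, 58.9, 33.5 and 83.3 CPM in Tregs and at 28.7 and 60.7 CPM in Teffs, with Treg 1 low again. Log2 fold changes were -0.80 ± 1.07 for Hspa1a and 0.01 ± 1.08 for Hspa1b. Hsph1, an HSP110 nucleotide exchange factor, was at 14.4 CPM in Treg 1, at 128 to 315 CPM in the other Tregs and at 144 and 146 CPM in Teffs. Hspa4, another HSP110, was steadier, at 148 to 284 CPM over all libraries.

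Both cytosolic HSP90 genes had overlapping groups and fold changes smaller than their SE. Hsp90ab1, the constitutive form (chr17:45567775-45573271), was at 1848, 3283, 2358 and 3426 CPM in Tregs and at 2268 and 2469 CPM in Teffs (0.20 ± 0.35, log2). Hsp90aa1, the inducible form, was at 69.1, 244, 90.5 and 189 CPM in Tregs and at 87.0 and 186 CPM in Teffs (0.12 ± 0.62). Per kilobase of exon, Hsp90ab1 had the highest level of all 46 genes in both groups, 910 CPM in Tregs and 790 in Teffs, and Hsp90aa1 stood at 37.7 and 34.7. Treg 1 was the lowest library for both.

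Among co-chaperones, Dnaja1, a J protein of the cytosol, stood at 399 CPM in Treg 1, at 154 to 174 CPM in the other Tregs and at 127 and 178 CPM in Teffs. It was thus highest in the library in which the inducible HSP70 genes were lowest. Dnajb1, a heat-inducible J protein, was at 109, 61.9, 152 and 177 CPM in Tregs and at 134 and 136 CPM in Teffs. It was lowest in Treg 2, unlike the inducible HSP70 genes. Bag3, an HSP70 nucleotide exchange factor of selective autophagy, was at 2.16 CPM in Treg 1 and at 14.1 to 36.3 CPM in the other 5 libraries. Dnajb4 had no counts in Treg 1, where 3 counts would be 0.541 CPM, and reached 40.5 CPM in Teff 1. Hsf1, the master regulator of the heat shock response (chr15:76477422-76501913), was at 32.7, 76.5, 21.0 and 61.8 CPM in Tregs and at 50.04 and 60.3 CPM in Teffs (log2 fold change -0.20 ± 0.76). Hspb1, a small heat shock protein abundant in epithelium, had 1, 32, 7 and 6 counts in Tregs and 5 and 1 counts in Teffs.

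**Figure D3:**
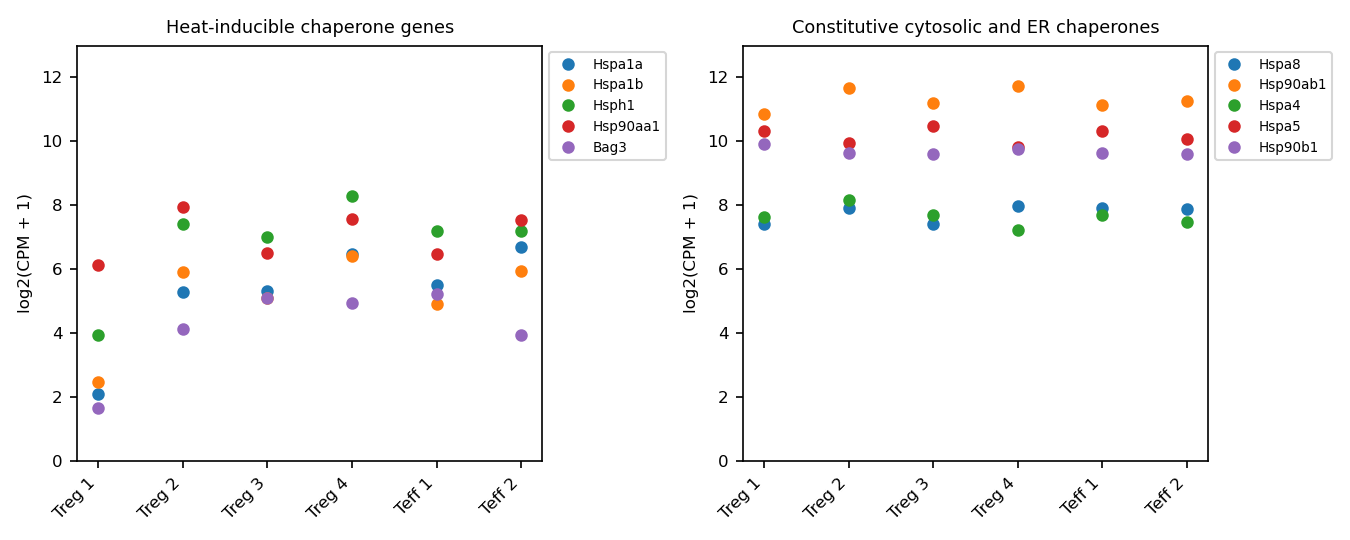
Level in each library, as log2(CPM + 1), of 5 heat-inducible chaperone genes (left) and 5 constitutively expressed chaperone genes of cytosol and ER (right); each colour is 1 gene. In Treg 1 the inducible genes Hspa1a, Hspa1b, Hsph1 and Bag3 lie well below every other library, while in the right panel Treg 1 lies near the other libraries; Dnajb1, which was lowest in Treg 2, is not plotted.

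Treg 1 was the lowest library for 19 of 45 members (42.2%), and for 38.6% of all genes tested, ties counted in each library. This share over the whole set was thus near that of other genes. By role it was 4 of 5 cytosolic HSP70 and HSP110 genes, both HSP90 genes, 4 of 8 ER chaperones and 1 of 7 CCT subunits. In the remaining groups it was 2 of 5 in the J protein group, 2 of 3 mitochondrial chaperones, 1 of 6 lectins and isomerases, 1 of 3 degradation genes and 2 of 6 UPR genes. Summed over the 9 members with a heat shock element, Treg 1 was at 762.5 CPM and the other libraries at 804 to 1165 CPM. That sum includes Dnaja1, which was highest in Treg 1. Of 18 immediate early and dissociation genes, which tissue dissociation is known to raise, Treg 1 was the lowest library for 8 (44.4%). These were Jun, Jund, Fosb, Ier2 and Ier3, and Hspa1a, Hspa1b and Hspa8, which are also members. Jun was at 1.08 CPM in Treg 1 and at 5.96 to 21.5 CPM in the other libraries. Fos was among the other 10, at 1814 CPM in Treg 1 and at 695 to 2509 CPM elsewhere. The part of tissue handling in the chaperone levels was not tested.

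The 3 mitochondrial chaperones among the members had positive log2 fold changes, with a median of 0.38. With single libraries left out, Hspd1 ran from -0.04 to 0.34 and Hspe1 from -0.02 to 0.65, so their signs did not hold. Of related mitochondrial genes outside the members, Trap1 (-0.66 ± 0.58) and Dnaja3 (-0.82 ± 1.39) were negative and Grpel1 (0.33 ± 0.70) positive. Hspa9, the HSP70 of the mitochondrial matrix, was at 42.8, 161, 159 and 111 CPM in Tregs and at 49.2 and 56.0 CPM in Teffs. Treg 1 lay below both Teffs while the other Tregs lay above them, and the log2 fold change was 1.17 ± 0.64. Without Treg 1, the Treg that broke this pattern, its unadjusted p by edgeR's quasi-likelihood test was 0.0124. Over all 6 libraries the same test gave 0.105. Leaving out the library that went against the difference favours a smaller p, so the drop is no support for the difference. In the fit without Treg 1, 6.12% of all genes had an unadjusted p under 0.05. The adjusted p of Hspa9 was still above 0.05 there (the smallest among members was 0.691). Hspd1, the chaperonin HSP60 (chr1:55077835-55088243), was at 90.0, 38.7, 81.3 and 66.1 CPM in Tregs and at 69.8 and 54.8 CPM in Teffs (0.15 ± 0.59). Hspe1, its lid HSP10, was at 7.22 to 33.7 CPM in all libraries.

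Subunits of the CCT chaperonin lay on the lower side in Tregs for 6 of 7 members, with a median log2 fold change of -0.34. None passed the test. Cct6a, a subunit that is not among the members, was at 29.3 to 272 CPM in Tregs and at 299 and 361 CPM in Teffs (-0.68 ± 0.735), and was not called. Tcp1, the subunit CCT-alpha (chr17:12915701-12925067), was at 273, 199, 213 and 212 CPM in Tregs and at 409 and 215 CPM in Teffs (-0.48 ± 0.38). Its difference rested on Teff 1 and was 0.05 without that library. Cct2, at chr10:117051001-117063814, was at 242, 311, 344 and 374 CPM in Tregs and at 391 and 415 CPM in Teffs (-0.34 ± 0.32). Cct5, at chr15:31590800-31601804, was at 353, 350, 514 and 373 CPM against 620 and 560 CPM (-0.57 ± 0.31). Both were lower in all Tregs than in both Teffs. Treg 3 came nearest to the Teffs for Cct5 and Treg 4 for Cct2. Cct8 was uneven between Tregs, at 95.4 to 552 CPM, and the remaining subunits Cct3, Cct4 and Cct7 spanned 124 to 598 CPM over all libraries. Summed over the 7 subunits that are members, without Cct6a, Tregs had 1744 to 2801 CPM and Teffs 3185 and 2443 CPM, so the groups overlapped.

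The main ER chaperones were abundant, and their libraries lay close together. Hspa5, the ER HSP70 known as BiP and a standard readout of the UPR (chr2:34771970-34777547), was at 1273, 979, 1417 and 910 CPM in Tregs and at 1290 and 1086 CPM in Teffs. The log2 fold change was -0.05 ± 0.32, with a 95% interval of -0.79 to 0.68. Hsp90b1, the ER HSP90 called GRP94 (chr10:86690209-86705509), was at 967, 794, 780 and 870 CPM in Tregs and at 791 and 777 CPM in Teffs. Its log2 fold change was 0.12 ± 0.29 with an interval of -0.54 to 0.78, and its highest library was 1.24 times its lowest. The promoters shown above for both genes hold the ER stress response element. Summed over the 7 members with this element the level was 2808 to 4208 CPM in Tregs and 3582 and 3106 CPM in Teffs.

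The scarcer ER co-factors had negative log2 fold changes with wide intervals. Hyou1, the ER HSP110 GRP170 (chr9:44379490-44392369), was at 13.7, 1.44, 23.8 and 17.4 CPM in Tregs and at 59.4 and 40.3 CPM in Teffs. No Treg library reached the lower Teff, and the log2 fold change was -1.82 ± 1.18. Dnajc3, the J protein P58IPK that also inhibits PERK (chr14:118937976-118981697), was at 31.6, 74.4, 57.7 and 118 CPM in Tregs and at 124 and 153 CPM in Teffs. The groups did not overlap, though Treg 4 came close to Teff 1 (-0.98 ± 0.58). Dnajb9, an ER J protein that restrains IRE1, had no counts in Treg 1 and stood at 32.8, 1.40 and 2.57 CPM in the other Tregs and at 32.8 and 20.9 CPM in Teffs. Sdf2l1 and Creld2, small UPR-induced ER proteins, had no counts in Treg 1 either and reached at most 12.99 and 18.1 CPM. In that library 5 members (11.1%) had no counts, against 21.6% of all genes tested, the highest such share of any library. Manf, a secreted ER stress-induced factor, was at 14.6 to 44.5 CPM in all libraries. Of the 8 log2 fold changes of ER chaperones and co-factors, 7 were negative, with a median of -0.96 and a range of -1.82 to 0.12.

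Most ER lectins and disulfide isomerases were highest in Treg 3, and higher in Teff 1 than in Teff 2. Calr, the lectin calreticulin (chr8:84841850-84846934), was at 368, 367, 514 and 234 CPM in Tregs and at 448 and 375 CPM in Teffs (-0.15 ± 0.38). Canx, the membrane lectin calnexin, was at 588, 316, 870 and 323 CPM in Tregs and at 601 and 425 CPM in Teffs. P4hb, the protein disulfide isomerase that is also a subunit of collagen prolyl hydroxylase, was at 245, 236, 516 and 175 CPM in Tregs and at 465 and 202 CPM in Teffs. Treg 3 was the highest Treg and Teff 1 the higher Teff for these 3 genes, and likewise for Pdia4 and Pdia6. That made 5 of 6 in this group, 4 of 7 CCT subunits, 3 of 8 ER chaperones and co-factors and 2 of 5 in the J protein group. It was 0 of 5 cytosolic HSP70 and HSP110 genes, 0 of 2 HSP90, 0 of 3 mitochondrial, 0 of 3 degradation and 0 of 6 UPR genes. Over the whole set it was 14 of 45 members (31.1%), against 18.0% of all genes tested. Treg 3 and Teff 1 are the libraries with the dermal fibroblast transcripts given above, Col3a1 being at 1448 and 89.6 CPM there and at 0 to 1.76 CPM elsewhere. The part of fibroblast RNA in these levels was not tested.

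**Figure D4:**
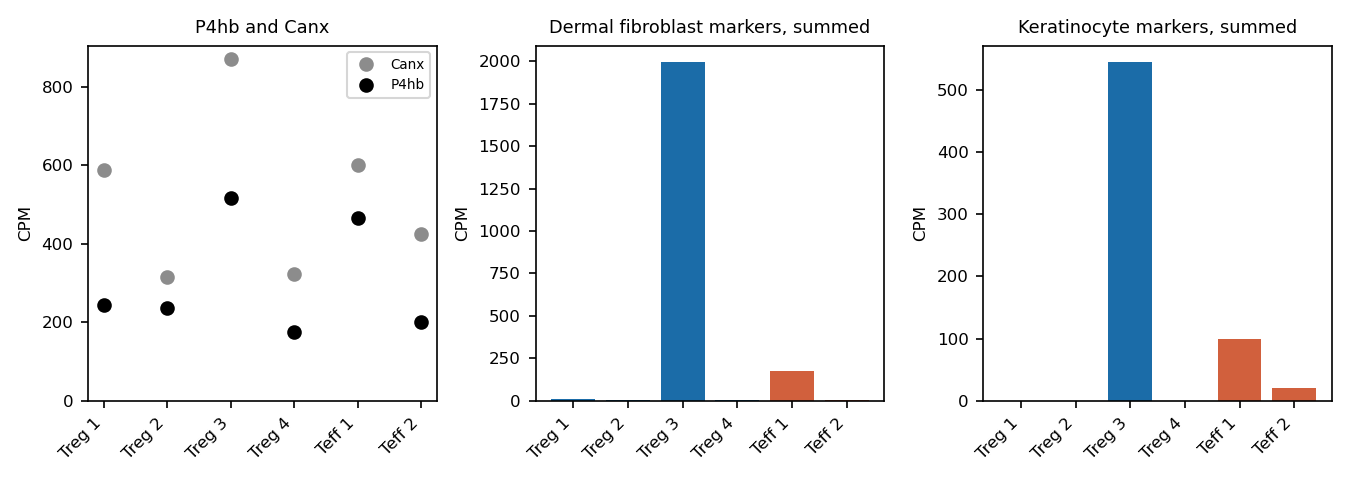
CPM in each library of P4hb and Canx (left), and the summed CPM of dermal fibroblast markers (middle) and keratinocyte markers (right), with Tregs in blue and Teffs in orange. Treg 3 has the highest value in every panel, with P4hb at 516 CPM, and Teff 1 has the second highest; P4hb and Canx are also present at 175 CPM or more in every library.

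Pdia6, an isomerase that also quiets IRE1 (chr12:17266545-17284770), was the one member higher in every Treg than in both Teffs. It was at 429, 387, 551 and 351 CPM in Tregs and at 319 and 273 CPM in Teffs (0.54 ± 0.34). Leaving out each library in turn gave Pdia6 log2 fold changes of 0.40 to 0.64. Because its groups do not overlap, such omissions could hardly change the sign. The range therefore shows how far the size moved and does not test the direction. Pdia3, the isomerase that works with both lectins, lay on the other side at 62.1 to 177 CPM in Tregs and 160 and 241 CPM in Teffs (-0.59 ± 0.49).

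Genes of ER-associated degradation did not separate the groups. Herpud1, a scaffold of the ubiquitin ligase complex (chr8:94386438-94395377), was at 279, 158, 147 and 72.5 CPM in Tregs and at 208 and 143 CPM in Teffs (-0.10 ± 0.55). Sel1l, the partner of the ligase HRD1, was at 18.6 to 125 CPM in Tregs and at 47.5 and 36.2 CPM in Teffs. Edem1, which directs misfolded glycoproteins to degradation, was at 174 to 358 CPM in Tregs and at 173 and 225 CPM in Teffs.

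Of the 3 sensors, Ern1 had the lowest level per kilobase in both groups and Atf6 the highest. Ern1 (chr11:106394650-106487852) had 1, 0, 3 and 26 counts in Tregs and 61 and 16 in Teffs, or 0.180, 0, 0.526 and 3.71 CPM against 8.08 and 3.10 CPM. Treg 4 lay above Teff 2, so the groups overlapped (-2.31 ± 2.16). The log2 fold change of Ern1 was -4.46 without Treg 4 and -1.47 without Teff 1. Eif2ak3 was at 22.4, 100, 18.8 and 151 CPM in Tregs and at 16.3 and 28.9 CPM in Teffs. Treg 2 and Treg 4 stood far above the other libraries there (1.70 ± 1.06, and 1.05 to 2.16 with single libraries left out). Atf6 was at 121 to 275 CPM in Tregs and at 203 and 122 CPM in Teffs.

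Their transcription factors showed no group difference beyond the spread. Xbp1 (chr11:5520659-5525893) had no counts in Treg 1 and was at 99.2, 56.1 and 73.9 CPM in the other Tregs and at 53.0 and 43.0 CPM in Teffs (0.26 ± 1.63). Spliced Xbp1 mRNA is the form that reports IRE1 activity, and a table of counts per gene does not separate it from the unspliced form. Atf4 (chr15:80255184-80257541), which is controlled largely at translation, was at 202, 217, 366 and 280 CPM in Tregs and at 319 and 323 CPM in Teffs (-0.27 ± 0.36). Ddit3, the pro-apoptotic factor CHOP (chr10:127290774-127296288), was at 57.0, 68.2, 16.5 and 58.8 CPM in Tregs and at 58.4 and 42.4 CPM in Teffs (-0.01 ± 0.77). Treg 3 was the low library for Ddit3.

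Other genes of these pathways were read from lists of related genes. Of 32 other chaperones and co-chaperones tested, 0 were called, and the median log2 fold change was 0.11. That list is mainly cytosolic but also holds Trap1, Grpel1 and Dnaja3 of mitochondria and Hspa13 of the ER. For 21 tested targets of ATF4 and of ER stress 0 were called and the median was 0.10, and for 46 tested genes of ER folding, translocation and degradation 0 were called and the median was 0.09. None of these 3 lists had a gene with an unadjusted edgeR p under 0.05. Among 18 immediate early and dissociation genes, of which 4 are also members here, 0 were called by edgeR and the median was 0.23. Dusp1, a MAP kinase phosphatase, had an unadjusted edgeR p of 0.0196 (adjusted p = 0.721). It was at 463, 2247, 579 and 1167 CPM in Tregs and at 159 and 343 CPM in Teffs, and DESeq2 called it (adjusted p = 0.0342).

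Sequence shared with other genes limits what the counts of some members mean. For each member, the distinct 50-base stretches of its GENCODE M21 transcripts were looked up in the transcripts of all other genes on both strands. The share found elsewhere was 66.3% for Hspa1a and 62.3% for Hspa1b, mostly in each other, 50.1% for Hspb1, 47.5% for Hsp90aa1, 42.1% for Hspd1, 39.4% for Hspa8, 22.8% for Hspe1 and 20.6% for Dnaja1. Of the genes sharing stretches with Hspa8, 12 of 16 are pseudogenes, and 9 of 10 are for Hspd1. It was 13.9% for Tcp1 and 9.75% for Hsp90b1, and under 7% for each other member. Entries with several alignments stand in a row of their own in the deposited table, at 61.2% to 66.2% of a column, so reads from such stretches may be missing from these genes. The ratio of Hspa1a to Hspa1b ranged from 0.644 to 1.68 over the libraries and the split between these copies is uncertain. Exons of another annotated gene, Gm20481, cover 19% of the exonic bases of Hspa1a, and for Tcp1 and Hsp90b1 other genes cover 16.9% and 15.7%.

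**Figure D5:**
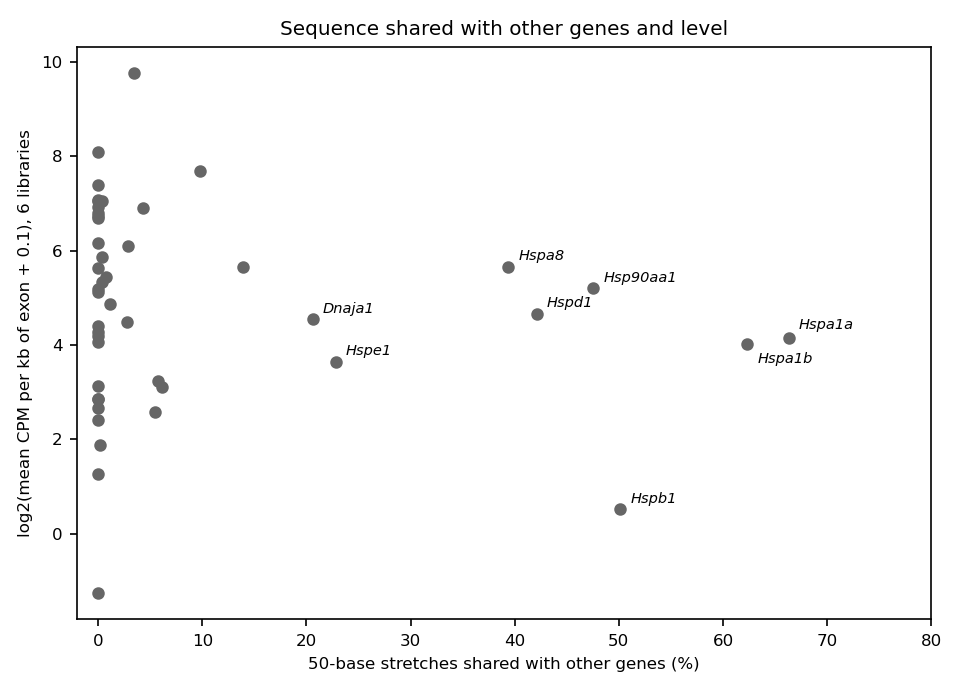
Share of a gene's 50-base stretches that occur in transcripts of other genes (%) against its level, as log2 of the mean CPM per kilobase of exon + 0.1 over 6 libraries; each point is 1 of the 46 genes, and those at 20% or more are named. Most genes sit near 0%, and Hspa1a and Hspa1b lie furthest right at 66.3% and 62.3%.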

How the data were processed

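mRNA of 4 Treg and 2 Teff libraries was counted per gene. The authors deposited 1 table of 15109 rows, which holds raw counts for each library (per the file headers, and whole numbers throughout). Named in the submitters' processing notes are HTSeq 0.6.1, TopHat2 2.0.12, CASAVA 1.8.2, Bowtie2 2.1.0.0 and build mm10, besides SAMtools 0.1.19.0, with no step for each. Annotation, strand setting and counting mode, not given in the sources used here, could change the counts of overlapping genes. The table also holds the authors' log2 fold change and mean log2 CPM, and their p-value and FDR, which the authors deposited without naming the test. Rows that name no gene (3, holding 88% to 90.2% of column totals) entered neither library sizes nor tests.

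Genes passing filterByExpr (smallest count 10) were kept, 11775 of 15106, and scaled by TMM in edgeR 4.0.16 (limma 3.58.1, R 4.3.3). The quasi-likelihood F test was run on group alone over all 6 libraries, and p was adjusted by Benjamini-Hochberg over all genes tested. SE is the log2 fold change over the square root of F, and 95% intervals use the test's degrees of freedom. The script was tested on simulated data with large changes and less spread between libraries than here. That checks the code and not the power to detect differences of members. For 1 value, an exact two-sided permutation of 4 and 2 labels cannot give a p below 0.0667, so none was used. Positions, exon lengths and overlaps are from GENCODE M21 (GRCm38, the build mm10), and promoters from RefSeq.

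The members and lists were chosen with earlier results of these data known. Values in every library are given for members whose groups do not overlap and for 16 members named by rule whatever their result, plus others chosen after their values were seen. Alternatives were DESeq2 1.42.0, limma-voom, other scalings and filters, each library left out, a replicate block and an adjusted p of 0.01. Leaving out both Treg 3 and Teff 1 was chosen after seeing the data.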

Additional observations from a re-analysis of the deposited data

Results flagged for a closer look

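Of 45 members, 4 had a Treg library that stood apart from the other 3, by a gap to its nearest neighbour (as a share of the range) above Dixon's 95% critical value. Chance flags about 1 in 20 such groups if values are normal, which CPM need not be. The share flagged over all genes was not computed, so the 4 cannot be read against a background. Dnaja1 was at 398.7 CPM in Treg 1, Cct5 at 514.4 CPM in Treg 3, Dnajb9 at 32.8 CPM in Treg 2 and Ern1 at 3.71 CPM in Treg 4, each above the other Tregs. They fall in 4 different libraries.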

How the results depend on the processing

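No member was called under any of the 16 alternatives (edgeR, DESeq2 or limma-voom; DESeq2 gave 43 of 45 an adjusted p), with smallest adjusted p-values of 0.617 to 1 and at most 1 member at an unadjusted p under 0.05. The alternative at an adjusted p of 0.01 rereads the main fit at a stricter threshold, so it could not add a call. The 21 members tracked gene by gene gave 314 alternative values, of which 37, in 10 genes, changed sign and 0 were called. Over all genes, the 4 higher and 1 lower calls became 141 and 43 with DESeq2, 1 and 2 with limma-voom, 17 and 2 with no filter, 0 and 1 with the replicate block, and 0 and 0 at an adjusted p of 0.01 or without both Treg 3 and Teff 1. Leaving out single libraries gave 0 to 2 higher and 0 lower. DESeq2 also called 1 dissociation gene, Dusp1. Limma-voom moved the median of all genes to -0.45 and that of ER chaperones to -1.57. Under limma-voom the median of other chaperones and co-chaperones was -0.19, and that of ATF4 and ER stress targets -0.44. The replicate block, on Treg 1, Treg 2, Teff 1 and Teff 2 alone, moved the median of all genes to -0.49 and that of members to -0.37. Under it the J protein group stood at -0.71, the CCT group at -0.55 and ER chaperones at -2.47. In the same fit other chaperones and co-chaperones stood at -0.47, and ATF4 and ER stress targets at -0.40. Deviations of same-numbered libraries correlated at 0.0661, which does not show pairing. Non-overlapping members higher in Tregs numbered 2 with DESeq2 size factors (4.44%, against 5.71% of all genes). Without both Treg 3 and Teff 1 they were 4 higher and 10 lower (13.9% and 23.8% of all genes), and the J protein group stood at 0.32. With single libraries left out they were 1 to 4 higher (4 without Treg 1, 8.89% against 9.81% of all genes) and 5 to 13 lower (13 of 46 without Teff 2, 28.3% against 18.9%; 11.1% to 15.6% against 13.5% to 16.2% in the other omissions). The member median then ranged from -0.22 to 0.08, the J protein group from -0.34 to 0.42, and CCT from -0.48 to -0.13. ER chaperones ranged from -1.17 to -0.56, lectins and isomerases from -0.33 to 0.40, and other chaperones and co-chaperones from -0.242 to 0.075. The cause of these shifts was not tested. Of 45 members, 21 kept their sign whichever single library was left out. Those 21 include the members whose groups did not overlap, for which such an omission could hardly change the sign. Depth limits the scarce members: a count of 0 allows up to 3 counts, 0.397 to 0.581 CPM.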

Other observations

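The levels of the 46 genes per kilobase of exon spanned a wide range in both groups. In Tregs the order began with Hsp90ab1 (910 CPM per kilobase), Hspa5 (271), Hsp90b1 (211) and Cct5 (144), and in Teffs with Hsp90ab1 (790), Hspa5 (281), Cct5 (213) and Hsp90b1 (194). Ern1 (0.135 and 0.684) and Hspb1 (1.79 and 0.415) were at the low end. Together the members took 0.960% to 1.32% of counts in genes, lowest in Treg 1 and highest in Treg 3.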
